A study of Mus musculus with 16 samples.

Results

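The sterol and fatty acid synthesis genes examined here are 31 genes of the 46983 in the count table. They comprise 6 genes of the mevalonate pathway (Hmgcs1, Mvk, Pmvk, Mvd, Idi1 and Fdps), 11 genes of sterol synthesis (Fdft1, Sqle, Lss, Cyp51, Tm7sf2, Msmo1, Nsdhl, Hsd17b7, Ebp, Sc5d and Dhcr7), 4 regulators (Insig1, Srebf1, Srebf2 and Scap), the sterol carrier Stard4, 5 genes of fatty acid synthesis (Acly, Acss2, Acaca, Fasn and Elovl6) and 4 desaturases (Scd1, Scd2, Fads1 and Fads2). They were chosen because Scd2 was among the largest rises after RAM siRNA. The changes of the members in input, and in polysomes of the same cultures, are therefore given as a description and without p-values. Members were found by matching Ensembl gene identifiers to mouse symbols, and all 31 passed the filter on low counts. RAM is encoded by Ramac and activates RNMT, the methyltransferase of the mRNA cap, and the study asked which transcripts depend on it in pluripotent cells. The cells were 46C mouse embryonic stem cells (ESCs) from strain 129Ola, a single line with GFP at the Sox1 locus, grown on gelatin in serum replacement with LIF. All 4 groups were transfected for 48 hr, at 70 pM per the labels, either with RAM siRNA or with non-targeting siRNA as control, and all were treated with cycloheximide before lysis. The study's legend for these transfections names a single RAM siRNA, and effects of its sequence other than on RAM were not tested. From each culture 10% of the lysate was kept as input and polysomes were pooled from sucrose gradient fractions 17 to 22, which gave 4 libraries each of control input, RAM siRNA input, control polysomes and RAM siRNA polysomes, 16 in all.

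Cells make cholesterol from acetyl-CoA. The mevalonate pathway builds isoprenoid units, squalene synthase and squalene epoxidase commit them to sterols, and a series of reductases, demethylases and isomerases then converts lanosterol to cholesterol. Fatty acids start from the same acetyl-CoA, which Acly makes from citrate and Acss2 from acetate. Acaca and Fasn build palmitate, Elovl6 lengthens it, and the desaturases introduce double bonds. Transcription of both pathways is driven by the SREBP proteins, which Srebf1 and Srebf2 encode. Scap carries the SREBP precursors out of the endoplasmic reticulum when sterols are low, and Insig1 holds them there when sterols are high.

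SREBP proteins bind sterol response elements in promoters, often beside sites for NF-Y (CCAAT) and Sp1 (GGGCGG), and promoters are therefore shown for genes that answered RAM siRNA in different ways. RefSeq promoters (build GRCm38.p6, 250 bases before to 50 after an annotated start, 300 bases each) were matched by symbol to 24 of the 31 genes, with 30 promoters among them. Scd1, Sqle, Fdps, Scd2, Fads1, Fdft1 and Stard4 had no match. Both strands were searched for TCACNCCAC, the core of a sterol response element, for the NF-Y motif CCAAT, for the Sp1 motif GGGCGG and for the E-box motif CACGTG. Capitals mark every match to any of these 4 motifs, read on either strand. Hmgcs1 is shown for its TCACNCCAC match at chr13:119690101-119690400 (plus strand). Acss2 at chr2:155517793-155518092 (plus strand), Dhcr7 at chr7:143822917-143823216 (plus strand) and Tm7sf2 at chr19:6067801-6068100 (minus strand) are genes with higher counts after RAM siRNA. Elovl6 at chr3:129532136-129532435 (plus strand) is the member with the largest lower value.
Hmgcs1: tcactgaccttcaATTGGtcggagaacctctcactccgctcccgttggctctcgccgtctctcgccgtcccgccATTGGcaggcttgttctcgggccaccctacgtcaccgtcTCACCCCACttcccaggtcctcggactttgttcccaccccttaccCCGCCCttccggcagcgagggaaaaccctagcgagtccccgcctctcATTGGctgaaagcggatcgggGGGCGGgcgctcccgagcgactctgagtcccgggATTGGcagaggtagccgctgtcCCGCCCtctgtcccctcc
Acss2: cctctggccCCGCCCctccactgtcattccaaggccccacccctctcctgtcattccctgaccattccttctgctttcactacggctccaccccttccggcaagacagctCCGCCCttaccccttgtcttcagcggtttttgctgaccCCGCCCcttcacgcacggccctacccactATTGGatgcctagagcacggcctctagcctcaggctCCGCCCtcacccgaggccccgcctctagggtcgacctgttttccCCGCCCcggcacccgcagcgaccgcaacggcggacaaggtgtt
Dhcr7: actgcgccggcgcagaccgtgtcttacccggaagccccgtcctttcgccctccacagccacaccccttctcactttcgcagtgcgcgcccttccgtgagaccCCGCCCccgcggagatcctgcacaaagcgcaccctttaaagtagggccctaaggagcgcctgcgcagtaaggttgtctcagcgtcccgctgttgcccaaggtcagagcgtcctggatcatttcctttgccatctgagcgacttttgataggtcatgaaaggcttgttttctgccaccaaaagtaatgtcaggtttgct
Tm7sf2: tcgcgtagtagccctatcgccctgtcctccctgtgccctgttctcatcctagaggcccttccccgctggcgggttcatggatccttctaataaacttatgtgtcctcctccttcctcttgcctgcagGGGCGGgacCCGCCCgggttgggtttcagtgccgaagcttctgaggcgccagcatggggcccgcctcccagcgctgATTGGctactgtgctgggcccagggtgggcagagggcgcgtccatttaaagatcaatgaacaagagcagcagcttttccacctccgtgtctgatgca
Elovl6: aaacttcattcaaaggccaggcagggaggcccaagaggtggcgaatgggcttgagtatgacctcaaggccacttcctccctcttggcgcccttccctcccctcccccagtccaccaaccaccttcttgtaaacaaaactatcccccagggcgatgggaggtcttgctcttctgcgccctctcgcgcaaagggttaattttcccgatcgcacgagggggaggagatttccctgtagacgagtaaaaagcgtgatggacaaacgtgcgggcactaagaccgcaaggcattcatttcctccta

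The match to TCACNCCAC in the Hmgcs1 promoter began 137 bases before the annotated start, and no other of the 30 member promoters held one, against 1.24% of all 32851 promoters. CCAAT was found in 21 of the 30 member promoters and in 37.4% of all promoters. GGGCGG was found in 23 of 30 against 35.7%, and CACGTG in 6 of 30 against 7.15%. The Elovl6 promoter held none of the 4 motifs. The Dhcr7 promoter shown, 1 of 3 in the table and the one nearest the annotated gene start, held GGGCGG only. These matches are letters in a window and no binding was measured.

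Library totals lay between 16647523 and 20147833 counts. Ramac, the targeted gene, had 11.2 ± 0.620 CPM (counts scaled to library size, SD, n = 4 libraries) in control input and 3.14 ± 0.241 CPM (SD, n = 4) in RAM siRNA input. It had 8.73 ± 3.57 CPM in control polysomes and 1.51 ± 1.10 CPM in RAM siRNA polysomes (SD, n = 4), so the labels held in both fractions. All 9 markers of pluripotent cells were detected, and their summed level was 4900 to 5230 CPM in control input and 4080 to 4700 CPM in RAM siRNA input, where all 9 log2 fold changes lay below 0, with a median of -0.19. Of these, 3 (Nanog, Esrrb and Dppa5a) fell without the replicate number in the fit and 8 with it, beside 5.94% and 19.0% of all genes. Of 7 primitive endoderm markers 5 passed the filter, with sums of 21.5 to 23.2 CPM in control input and 22.6 to 31.8 CPM in RAM siRNA input, and Gata6 and Dab2 rose. Sox7, of the same list, went the other way at -0.77, lower in 4 of 4 pairs. With the replicate number 3 of this list rose and Sox7 fell, beside 20.3% of all genes higher and 19.0% lower. Of 7 fibroblast markers 1 passed, with sums of 8.36 to 10.1 and 9.53 to 11.8 CPM, and Col3a1, Dcn and Lum were at 0 in control input. Of 6 neural markers 4 passed, with sums of 74.8 to 87 and 81.2 to 95.6 CPM. Among them Nes was at 0.43 and Pax6 at -0.50, each in the same direction in 4 of 4 pairs and called by edgeR with the replicate number in the fit but not without it. The part of these markers in the results that follow was not tested, and in bulk libraries fewer cells of a type and less RNA per cell cannot be told apart. Libraries with the same replicate number resembled each other, and RAM siRNA polysome replicate 2 stood apart for several members, so the polysome values of the called members are also given without replicate 2.

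Per length of exon, the level of these genes in control input ranged from 0.666 CPM per kb for Acss2 to 74.1 ± 6.68 CPM per kb (SD, n = 4) for Cyp51, the lanosterol demethylase. This length sums all annotated exons, and the order of genes and their closeness depend on it. It was 10163 bases for Acss2, 6144 for Msmo1, 4208 for Fdps and 4415 for Cyp51. The transcripts with their longest coding sequences had 2145, 2044, 1382 and 3931 bases. Msmo1 at 71.8 ± 8.35, Scd2 at 70.6 ± 6.87, Insig1 at 69.4 ± 5.04 and Hmgcs1 at 64.3 ± 12.01 CPM per kb (SD, n = 4) lay within their spread of each other. Scd1, the paralog of Scd2, had 12.1 ± 2.20 CPM per kb (SD, n = 4). Fdps, the farnesyl diphosphate synthase, was the lowest of the mevalonate genes on this scale, with 1.45 ± 0.250 CPM per kb (SD, n = 4). The value of Fdps is also uncertain because it shares exons on the same strand with the gene model Gm43738, which had 0 counts in all 16 libraries. Of the 50-base stretches of its transcripts 26.2% also occur in transcripts of other genes. The same share was 30.4% for Acaca and 17.7% for Idi1, both with processed pseudogenes, and 9.87% for Tm7sf2, with Vps51. It was 3.97% for Scd2 and 4.56% for Scd1.

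In input, the transcripts of this program did not move as 1 block. Of the 31 genes, 23 had a log2 fold change above 0 and 8 below 0, with a median of 0.16 against 0.001 over all 12805 genes tested. Scd2, Acss2, Dhcr7, Tm7sf2, Scap, Srebf1, Hsd17b7 and Insig1 were higher after RAM siRNA and Elovl6 and Acly were lower. These 8 and 2 genes passed an adjusted p of 0.05 in edgeR's quasi-likelihood test, beside 6.95% of all genes higher and 5.94% lower. With the replicate number as a factor in the fit, 18 members were higher and 4 lower, beside 20.3% and 19.0% of all genes. Called only with it were Cyp51, Nsdhl, Sqle, Sc5d, Srebf2, Idi1, Acaca, Fasn, Fads1 and Fads2, higher, and Pmvk and Ebp, lower. The fold changes and standard errors given for single members in input are from the fit without this factor. The members were chosen with this comparison known, and nothing is read from these counts.

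Scd2, on chr19:44293674-44306864, encodes a stearoyl-CoA desaturase, which puts the first double bond into saturated fatty acids. It had 361, 410.4, 424 and 347 CPM in control input replicates 1 to 4 and 859.9, 881, 785 and 655 CPM in RAM siRNA input. The groups did not overlap, and the RAM siRNA library was higher in 4 of 4 same-numbered pairs. The log2 fold change was 1.04 (SE 0.11), which ranked 73 from the highest among the 12805 genes. Its paralog Scd1 did not follow, with 56.3, 75.0, 55.2 and 50.7 CPM in control input and 66.2, 71.5, 48.8 and 45.0 CPM after RAM siRNA. For Scd1 the RAM siRNA library was higher in 1 of 4 pairs and the log2 fold change was -0.036 (SE 0.15). Fads1 and Fads2, the desaturases of polyunsaturated fatty acids, had log2 fold changes of 0.25 (SE 0.08) and 0.20 (SE 0.11), and were higher in 4 of 4 pairs each.

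Fatty acid synthesis held the member values farthest apart after Scd2. Acss2, on chr2:155517948-155585724, encodes the acetyl-CoA synthetase that uses acetate. It had 5.85, 7.10, 6.58 and 7.54 CPM in control input and 13.6, 10.7, 12.7 and 11.6 CPM in RAM siRNA input, with no overlap. Its log2 fold change was 0.85 (SE 0.12), and Gss and Ggt7 lie on the other strand of its exons. Elovl6, on chr3:129532355-129638495, encodes the elongase that extends palmitate to stearate, the substrate of the stearoyl-CoA desaturases. It had 359, 367, 344 and 288 CPM in control input and 209, 205, 206 and 155 CPM in RAM siRNA input. All RAM siRNA libraries lay below all control libraries, and the log2 fold change was -0.81 (SE 0.11), which ranked 80 from the lowest among the 12805 genes. Acly, the ATP citrate lyase, was also lower in 4 of 4 pairs without overlap, with 278, 291, 249 and 314 CPM in control input and 211, 224, 207 and 246 CPM after RAM siRNA. The enzymes between them differed little, with log2 fold changes of 0.15 (SE 0.06) for Acaca, the acetyl-CoA carboxylase, and 0.12 (SE 0.11) for Fasn, the fatty acid synthase.

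All 4 regulators lay above 0. Scap had 166, 177, 168 and 153 CPM in control input and 249.8, 250, 229 and 203 CPM in RAM siRNA input, with no overlap, and its log2 fold change was 0.49 (SE 0.08). Srebf1 had 153, 173, 146 and 129.5 CPM in control input and 211, 221, 202 and 162 CPM after RAM siRNA, higher in 4 of 4 pairs although the lowest RAM siRNA library lay within the control range. Insig1 had 215, 235, 211 and 198 CPM in control input and 298, 289, 259 and 231 CPM after RAM siRNA, again higher in every pair with a small overlap. Their log2 fold changes were 0.41 (SE 0.11) and 0.33 (SE 0.09). Srebf2, the form most tied to sterol synthesis, had 0.16 (SE 0.10), and the sterol carrier Stard4 had 0.11 (SE 0.09).

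Within sterol synthesis the higher values were in the steps after lanosterol. Dhcr7, the last reductase of cholesterol synthesis, had 29.5, 34.3, 29.6 and 25.7 CPM in control input and 43.3, 48.8, 43.6 and 38.0 CPM in RAM siRNA input. The groups did not overlap and the same-numbered pairs differed by 0.51 to 0.57 on the log2 scale, with a log2 fold change of 0.54 (SE 0.10) in the fit. Tm7sf2, a sterol C14 reductase, had 32.4, 34.1, 38.4 and 28.6 CPM in control input and 43.4, 49.1, 54.8 and 44.5 CPM after RAM siRNA, also without overlap. Its log2 fold change was 0.52 (SE 0.10), and that of Vps51, whose exons overlap it on the same strand, was -0.16 (SE 0.08). Hsd17b7, a sterol ketone reductase, had 0.34 (SE 0.08), and Cyp51 had 0.33 (SE 0.11). Ebp, the sterol isomerase, went the other way with -0.35 (SE 0.12) and was lower in 4 of 4 pairs. Msmo1, the methylsterol oxidase, and Lss, the lanosterol synthase, were at -0.076 (SE 0.11) and -0.007 (SE 0.12), and Sqle, the squalene epoxidase, was at 0.16 (SE 0.10).

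Of the 6 mevalonate genes 4 lay above 0 and 2 below, with a median of 0.088, and none was called without the replicate factor. With that factor Idi1 was called higher and Pmvk lower. Hmgcs1, the cytosolic HMG-CoA synthase and the member with the TCACNCCAC match, had 313, 354, 222 and 293 CPM in control input and 285, 342, 234 and 301 CPM in RAM siRNA input. Replicate 3 was lowest in both groups, 2 of 4 pairs were higher and 2 lower, and the log2 fold change was -0.024 (SE 0.14). Pmvk, the phosphomevalonate kinase, was lower in 4 of 4 pairs at -0.32 (SE 0.11). Idi1 and Fdps were at 0.25 each (SE 0.13 and 0.16), and Mvk and Mvd at 0.11 (SE 0.10) and 0.069 (SE 0.12).

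**Figure D1:**
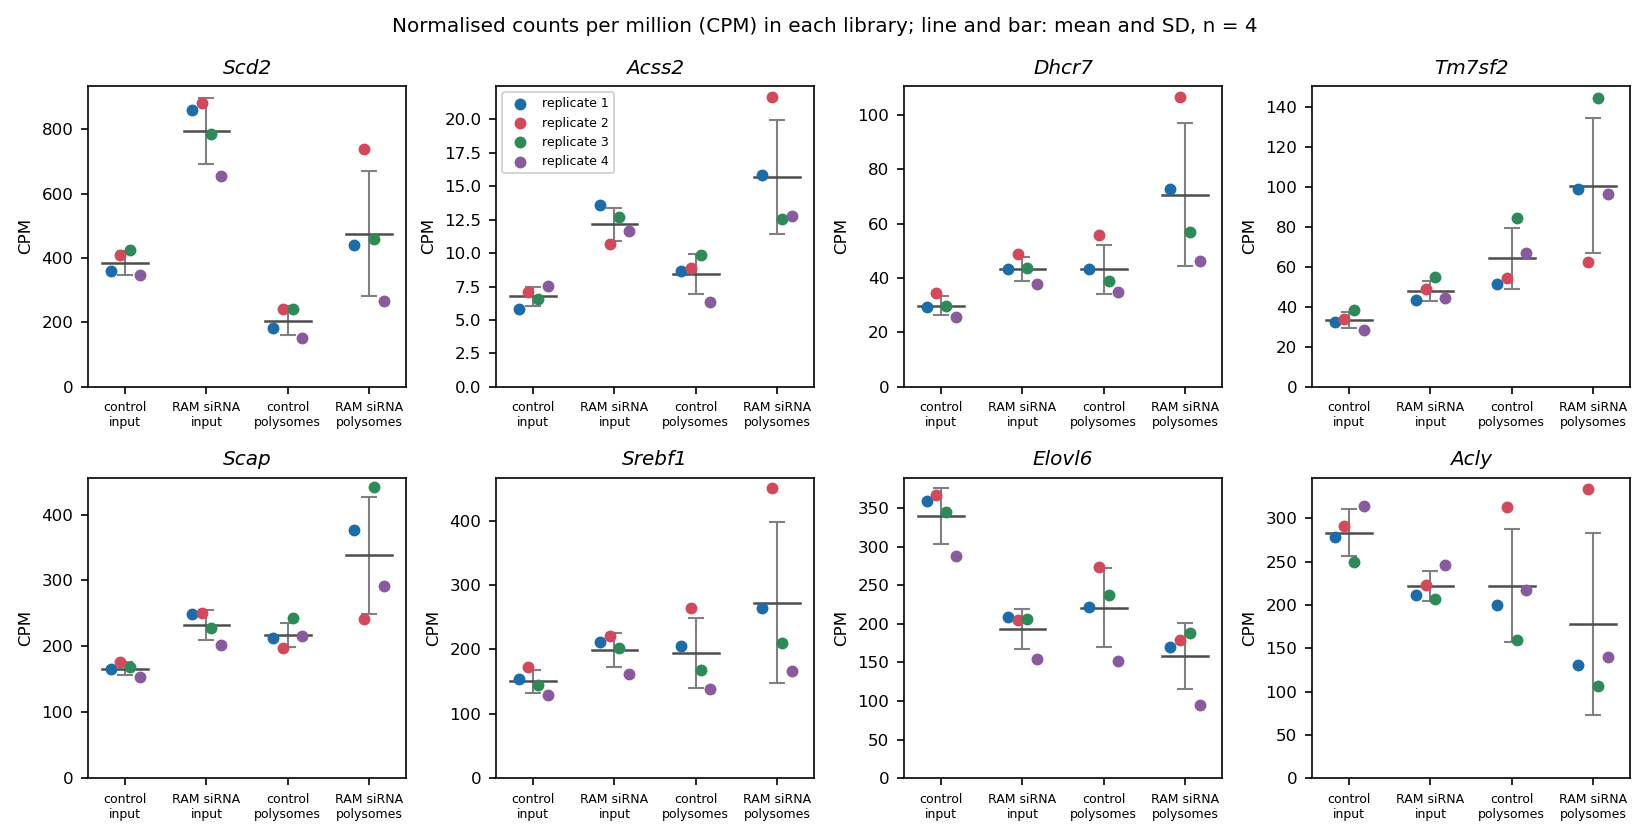
CPM of 8 genes in each of the 16 libraries, coloured by replicate number, with the mean (line) and SD (bar, n = 4) of each group on axes that start at 0. In input, Scd2 and Acss2 lie higher and Elovl6 and Acly lower in all 4 RAM siRNA libraries than in any control library, while in polysomes replicate 2 is the highest RAM siRNA library for Scd2, Acss2, Dhcr7, Srebf1 and Acly.

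In polysomes Scd2 and Acss2 had the highest log2 fold changes of the members and Elovl6 the lowest. Without the replicate number in the fit, 0 of 31 members rose and 0 fell in edgeR's quasi-likelihood test, beside 0.00% of all genes higher and 0.0234% lower. At an unadjusted p under 0.05 there were 6 members, beside 1152 of all 12805 genes. DESeq2 called 2 (Acss2 and Scd2, both higher), beside 156 genes higher and 144 lower. By limma-voom 0 members were called, beside 0 genes higher and 3 lower. With the replicate number as a factor, 8 members rose and 2 fell, beside 9.68% of all genes higher and 4.97% lower. These were Scd2, Acss2, Dhcr7, Tm7sf2, Scap, Srebf1, Hsd17b7 and Insig1, and Elovl6 and Acly. The median log2 fold change of the members was 0.27 against 0.056 over all genes without the replicate factor, and 0.24 against 0.027 with it. Polysome libraries came from the same cultures as the input libraries, so they are another measure of those cultures and not new replicates. Nothing is read from these counts of members either.

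Scd2 had 183, 243, 243 and 152 CPM in control polysomes and 439.9, 738, 459.9 and 268 CPM in RAM siRNA polysomes. The groups did not overlap, the lowest RAM siRNA library being 268 CPM and the highest control library 243 CPM. With the replicate factor its log2 fold change was 1.15 (SE 0.14), and without it 1.21 (SE 0.30). Acss2 had 8.67, 8.91, 9.87 and 6.37 CPM in control polysomes and 15.9, 21.7, 12.5 and 12.7 CPM in RAM siRNA polysomes, also without overlap. Its log2 fold change was 0.88 (SE 0.15) with the replicate factor and 0.89 (SE 0.23) without it. For the other genes that rose, the ranges of the groups overlapped.

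Dhcr7 had 43.4, 55.6, 39.0 and 34.9 CPM in control polysomes and 72.6, 106.5, 56.9 and 46.2 CPM in RAM siRNA polysomes, higher in 4 of 4 pairs. With the replicate factor its log2 fold change was 0.66 (SE 0.12), and that of Tm7sf2 was 0.62 (SE 0.13). Scap had 213, 198, 243 and 216 CPM in control polysomes and 377, 242, 442 and 291 CPM in RAM siRNA polysomes. Its log2 fold change was 0.60 (SE 0.13). Replicate 2 was the highest RAM siRNA library for Dhcr7 and the lowest for Scap. Hsd17b7 rose by 0.47 (SE 0.12), Insig1 by 0.46 (SE 0.13) and Srebf1 by 0.43 (SE 0.12), all on the log2 scale with the replicate factor.

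Elovl6 had 221, 274, 238 and 152 CPM in control polysomes and 169, 179, 188 and 95.0 CPM in RAM siRNA polysomes, lower in 4 of 4 pairs. Its log2 fold change was -0.50 (SE 0.11) with the replicate factor. Acly had 199.9, 313, 159 and 218 CPM in control polysomes and 131, 334, 106 and 139.6 CPM in RAM siRNA polysomes. It was lower in 3 of 4 pairs and higher in replicate 2, with -0.43 (SE 0.13). Fasn had 39.4, 64.6, 27.2 and 39.4 CPM in control polysomes and 41.2, 129.7, 29.5 and 42.8 CPM in RAM siRNA polysomes, so that replicate 2 was highest in both groups. The log2 fold change of Fasn in polysomes without the replicate factor was 0.51 (SE 0.46) and was -0.17 without RAM siRNA polysome replicate 2.

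The polysome calls with the replicate factor depended on which replicate number was in the fit. Without replicate 2, 13 members rose and 3 fell, beside 2731 higher and 1827 lower of all 12805 genes. Without replicate 1, 3 rose (Scd2, Acss2 and Dhcr7) and 1 fell (Elovl6), beside 541 and 265. Without replicate 3 there were 5 and 1, beside 788 and 409, and without replicate 4, 6 and 0, beside 611 and 307. The calls over all genes thus also changed with the replicate left out. Scd2, Acss2 and Dhcr7 rose in all 4 of these fits. For Scd2 the log2 fold change lay between 1.00 and 1.23 in them. All 10 genes called with replicate 2 were also called without it. Their log2 fold changes without replicate 2 were 1.00 (SE 0.09) for Scd2, 0.73 (SE 0.13) for Acss2, 0.57 (SE 0.08) for Dhcr7, 0.75 (SE 0.08) for Tm7sf2 and 0.71 (SE 0.09) for Scap. They were 0.63 (SE 0.08) for Insig1, 0.46 (SE 0.10) for Hsd17b7, 0.32 (SE 0.08) for Srebf1, -0.46 (SE 0.08) for Elovl6 and -0.61 (SE 0.08) for Acly. Scd2, Acss2, Dhcr7 and Srebf1 were thus closer to 0 without replicate 2, and Tm7sf2, Scap, Insig1 and Acly farther from it. Elovl6 and Hsd17b7 moved less, both toward 0.

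**Figure D2:**
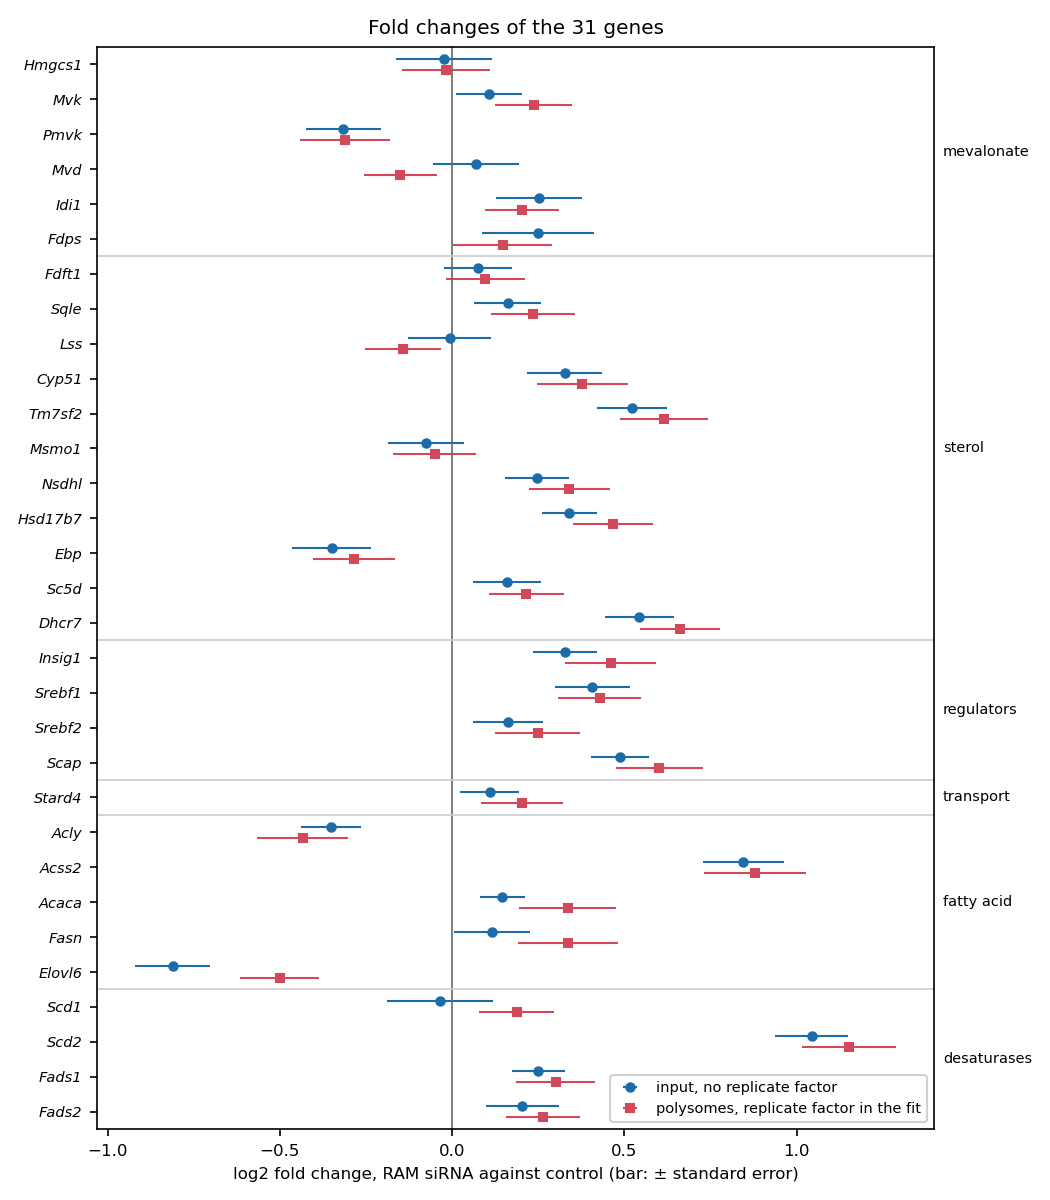
Log2 fold change of RAM siRNA against control for the 31 genes grouped by role, in input without a replicate factor (circles) and in polysomes with it (squares), with bars of 1 standard error. Scd2 and Acss2 are farthest to the right and Elovl6 and Acly to the left in both fractions.

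Whether RAM siRNA moved these transcripts onto or off polysomes was addressed by subtracting the input log2 fold change from the polysome one in a fit to the 16 libraries together. The difference contains the input change by which the genes were chosen, so the values of members are again a description. No member passed, with 0 higher and 0 lower, beside 0.00% of all genes higher and 0.00% lower without a replicate factor and 0.00% and 0.0156% with a replicate factor within each fraction. At an unadjusted p under 0.05 edgeR gave 0 members, beside 100 of all 12805 genes, and 2 with the replicate factor, beside 637. DESeq2 and limma-voom also called 0. The members' differences lay between -0.27 for Mvd and 0.36 (SE 0.52) for Fasn. The 2 genes were Mvd, at -0.26 (SE 0.12), and Elovl6, at 0.26 (SE 0.11), and neither passed after adjustment. For Elovl6 the change was -0.81 in input and -0.50 in polysomes, and no change of loading is read from these 2 genes. Standard errors with the replicate factor were 0.11 to 0.20 on the log2 scale, which limits the differences in loading that could be resolved.

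In control cells the genes ranged widely in how far their transcripts were found on polysomes, from Ebp at the top to Fasn at the bottom. No RAM siRNA library enters here. The control input libraries do, and they were also part of the comparison by which the genes were chosen, so these values are not independent of that choice. Relative to input, 18 members were higher in polysomes and 7 lower, beside 33.1% of all genes higher and 34.3% lower. With the replicate factor these were 20 and 8, beside 35.1% and 37.2%. The median of the members was 0.45 on the log2 scale against -0.001 over all genes. Of the 11 genes of sterol synthesis 9 were higher and 0 lower, with a median of 0.96, and of the 6 mevalonate genes 4 were higher and 0 lower, with a median of 0.47. Of the 5 genes of fatty acid synthesis 1 was higher (Acss2) and 3 lower, with a median of -0.51, while the desaturases divided into 1 higher and 2 lower. No test compared the pathways. The calls of Fads1, Acss2, Srebf1, Elovl6 and Scd1 were lost in 11, 10, 7, 4 and 4 of 22 other settings of the fit. This scale is a ratio to the other transcripts of each fraction and not a number of ribosomes per transcript.

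Ebp had the highest ratio of polysomes to input, with log2 ratios of 1.73, 1.51, 1.68 and 1.73 in control cultures 1 to 4 and a fitted value of 1.62 (SE 0.12, adjusted p = 8.8e-07). Fdft1, the squalene synthase, followed with 1.44, 1.35, 1.38 and 1.28 and a fitted value of 1.33 (SE 0.13, adjusted p = 6.41e-06). Nsdhl, a sterol dehydrogenase, was at 1.32 (SE 0.13, adjusted p = 7.11e-06) and Msmo1 at 1.19 (SE 0.16, adjusted p = 4.99e-05). These were uniform over cultures, with all 4 ratios above 1 for each.

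Fasn and Acaca, whose coding sequences of 7515 and 7038 bases are the longest of the 31, were at the other end. Fasn had log2 ratios of -1.98, -1.47, -2.39 and -2.12 and a fitted value of -1.96 (SE 0.23, adjusted p = 2.37e-05). Acaca had -1.85, -1.24, -2.20 and -2.03 and a fitted value of -1.80 (SE 0.20, adjusted p = 1.48e-05). Culture 2 was the highest for both genes. Short coding sequences were found at this end too, and over the 31 genes Spearman's rho of the fitted value against coding length was -0.12, a description across genes that share libraries. Stard4, with a coding sequence of 675 bases, had -1.27, -1.31, -1.39 and -1.35 and a fitted value of -1.36 (SE 0.12, adjusted p = 3.14e-06). Insig1 was at -0.91 (SE 0.12, adjusted p = 5.79e-05), Scd1 at -0.58 (SE 0.20, adjusted p = 0.0246) and Elovl6 at -0.51 (SE 0.17, adjusted p = 0.0199). Scd2 was at -0.80 (SE 0.16), given without a p-value because its input change was the reason for the choice. The regulators other than Insig1 were higher in polysomes, with 0.79 for Srebf2, 0.50 for Scap and 0.48 for Srebf1.

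**Figure D3:**
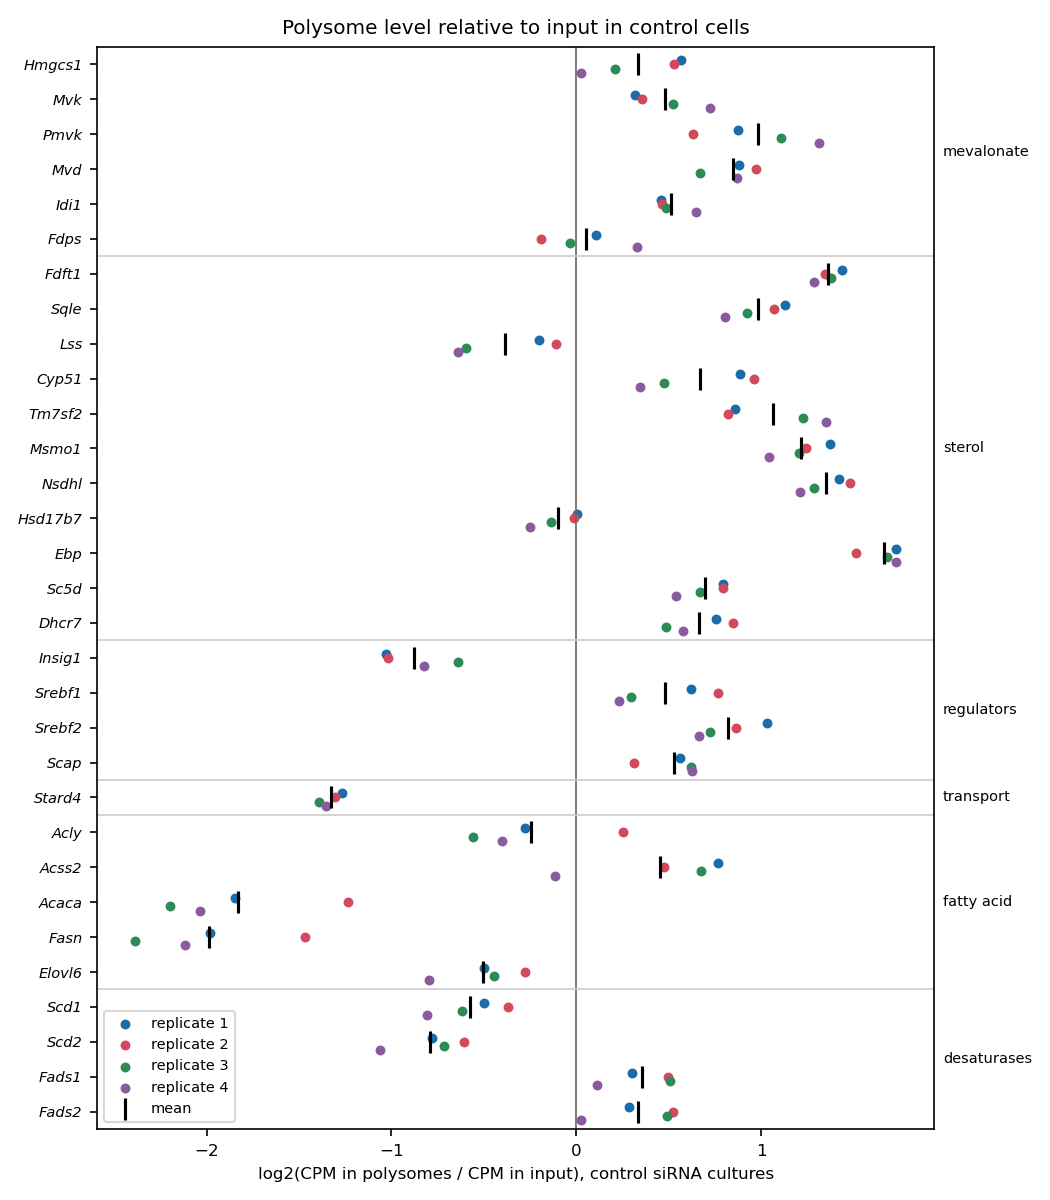
Log2 ratio of CPM in polysomes to CPM in input in the 4 control siRNA cultures (points, coloured by replicate number) with their mean (bar), for the 31 genes grouped by role. Ebp, Fdft1, Nsdhl and Msmo1 lie above 1 in all 4 cultures, and Fasn, Acaca and Stard4 below -1.

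Libraries of the same number shared their deviations across this program. In input, replicate 2 was above its group mean for 30 of 31 members in control cells and for 29 in RAM siRNA cells, with median deviations of 0.13 and 0.15 on the log2 scale. Replicate 4 was below it for most, with 6 and 7 of 31 above and medians of -0.13 and -0.18. All genes tested had medians between -0.003 and 0.005 in input. In RAM siRNA polysomes the median deviation of the members was 0.35 in replicate 2, with a range from -0.63 to 1.34, and -0.39 in replicate 4. In RAM siRNA polysome replicate 2, 25 of 31 members lay above the group mean and Tm7sf2, Pmvk, Insig1, Scap, Ebp and Mvk below it. Cause and source of the replicate differences were not tested.

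**Figure D4:**
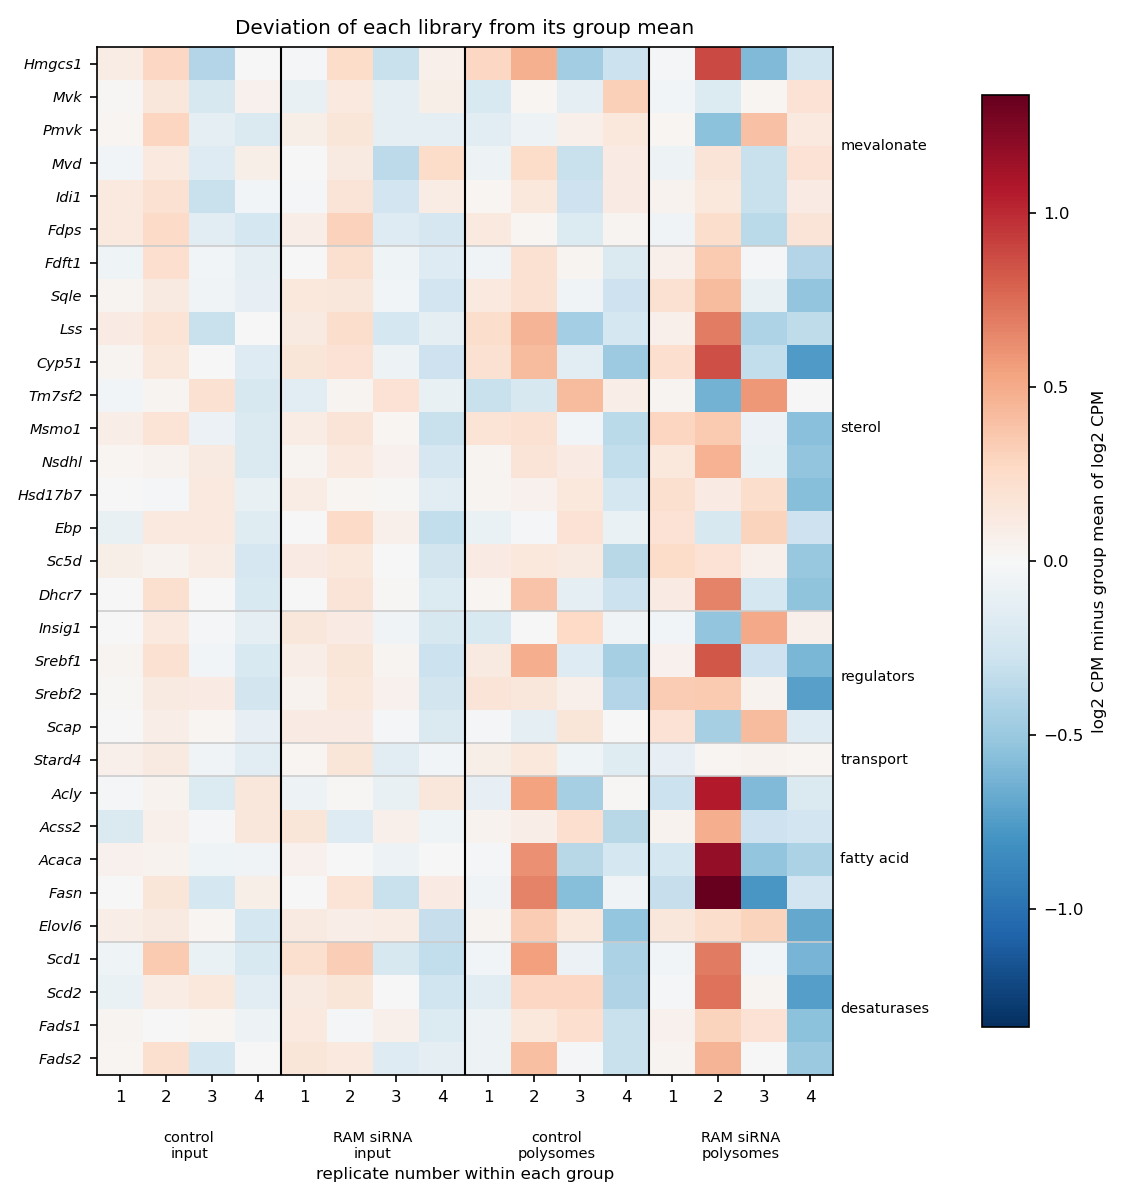
Deviation of log2 CPM from the mean of its group for the 31 genes (rows, by role) in the 16 libraries (columns, by group and replicate number), from blue (below) to red (above). Replicate 2 is red for most genes in all 4 groups and most strongly for Fasn and Acaca in RAM siRNA polysomes, and replicate 4 is blue for most.

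Other genes of lipid metabolism, from lists that hold no member, moved in both directions. The list of further sterol genes also held genes of sphingolipid and glycerolipid synthesis. Of 17 further sterol genes 1 rose and 2 fell in input, with a median of 0.014, beside 6.95% of all genes higher and 5.94% lower. With the replicate factor 3 were higher and 5 lower, beside 20.3% and 19.0%. Stard3, a sterol carrier of late endosomes, rose by 0.38 (SE 0.10, adjusted p = 0.023). Mbtps1, the protease that makes the first cut in SREBP proteins, had -0.50 (SE 0.09, adjusted p = 0.00379), and Ggps1, the geranylgeranyl diphosphate synthase, had -0.30 (SE 0.08, adjusted p = 0.0301). Of 25 further fatty acid genes 22 were tested, of which 5 rose and 3 fell, with a median of 0.11, and 9 were higher and 5 lower with the replicate factor. Elovl2, an elongase of polyunsaturated fatty acids, rose by 1.006 (SE 0.10, adjusted p = 8.53e-05). Acsl5, an acyl-CoA synthetase, had -0.82 (SE 0.07, adjusted p = 6.13e-05) while Acsl3, of the same family, rose by 0.49 (SE 0.09, adjusted p = 0.00372) and Acsl4 had -0.39 (SE 0.11, adjusted p = 0.0397). Hacd1, a dehydratase of fatty acid elongation, rose by 0.44 (SE 0.11, adjusted p = 0.0258).

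Targets of the liver X receptors, which sense oxysterols, were listed together with the genes of the receptors. This list and genes of fatty acid oxidation were examined in the same way. Of 8 genes of the liver X receptor list 6 were tested, a receptor gene among them. In edgeR 0 passed, beside 6.95% of all genes higher and 5.94% lower, and 1 had an unadjusted p under 0.05, beside 3591 of 12805. DESeq2 called 1 (Arl4c, higher), beside 1067 genes higher and 911 lower, and limma-voom 0, beside 893 and 774. With the replicate factor edgeR called Arl4c higher and Abca1 lower, beside 20.3% and 19.0% of all genes. Of 20 oxidation genes 0 passed, with a median of 0.036, and DESeq2 and limma-voom also called 0. At an unadjusted p under 0.05 there were 2, beside the same 3591 of all genes. With the replicate factor 5 were higher and 3 lower, beside 20.3% and 19.0% of all genes. In control cells 16 of the 20 oxidation genes were higher and 1 lower in polysomes than in input, with a median of 1.07, and of the 22 fatty acid genes outside the 31, 14 were higher and 2 lower, with a median of 0.67. Of the 17 further sterol genes 7 were higher and 3 lower, with a median of 0.088. Of all genes 33.1% were higher and 34.3% lower. In polysomes 0 genes of these 4 lists passed in edgeR without the replicate factor, beside 0.00% of all genes higher and 0.0234% lower. At an unadjusted p under 0.05 were 2 sterol genes, 4 fatty acid genes, 1 liver X receptor target and 0 oxidation genes, beside 1152 of 12805. DESeq2 called Elovl2 higher and Acsl5 lower in these lists, beside 156 and 144 of all genes, and limma-voom called 0. With the replicate factor Elovl2 rose by 1.04 (SE 0.11, adjusted p = 4.18e-05) and Acsl5 had -0.68 (SE 0.11, adjusted p = 0.000922).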

How the data were processed

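RNA from input and pooled polysome fractions of control and RAM siRNA ESCs was sequenced in 16 libraries. Per the labels and the study's methods, libraries were stranded and ribosomal RNA was depleted, reads were aligned with STAR 2.5.1b to mm10 (GRCm38), and the authors deposited raw counts per Ensembl gene made with HTSeq. The strand and overlap settings of the counting are not given in the sources used here. Columns of the table were matched to samples by name.

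Counts were tested with edgeR 4.0.16 (quasi-likelihood, TMM scaling, Benjamini-Hochberg adjustment, threshold 0.05) in R 4.3.3, after the study's filter (1 CPM or more in 10 or more of the 16 libraries), which kept 12805 of 46983 genes. Input and polysome libraries were fitted separately, the change in loading over all 16 libraries, and loading in the 8 control libraries. P-values were adjusted over all genes tested. CPM uses TMM-scaled library sizes, and levels per length divide it by the summed exon length. Precision is given by the spread between 4 cultures, which were made on separate occasions. DESeq2 1.42.0, limma 3.58.1 (voom), other scalings and filters, a replicate factor and leaving out each library were alternatives. DESeq2 and limma-voom with the replicate factor, and that factor with each number left out, were added after seeing the data. The fits were also run on simulated counts. The replicate effect set there was smaller than the spread of most members between polysome libraries, so nothing is read from that run.

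Replicate numbers pair the samples: deviations from the group mean correlated in every same-numbered pair, with Pearson's r over 9157 genes of 0.40 to 0.80 between control and RAM siRNA input, 0.63 to 0.94 in polysomes and 0.24 to 0.57 between control input and polysomes.

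All members could be named, and from the other lists the called genes with the largest changes, at most 5 a list. The members and lists were chosen with earlier results of these data known. Some further genes of the sterol pathway are not reported here. Gene symbols, positions and exon lengths came from an Ensembl annotation of GRCm38 and promoters from RefSeq. Shared stretches are 50-base windows of a gene's transcripts that also occur in another gene's transcripts.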

Additional observations from a re-analysis of the deposited data

Results flagged for a closer look

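In 6 of the 124 groups of 4 libraries formed by the 31 genes, 1 library lay far from the other 3 by Dixon's ratio of its gap to the whole range, beyond its 95% critical value, and chance alone flags about 1 in 20 groups. Elovl6 in RAM siRNA input had 155 CPM in replicate 4 against 209, 205 and 206 CPM (ratio 0.926), and in RAM siRNA polysomes 95.0 CPM in replicate 4 against 169, 179 and 188 CPM (ratio 0.846). Sc5d, the lathosterol desaturase, had 59.8 CPM in control input replicate 4 against 73.9, 72.4 and 74.9 CPM (ratio 0.844), and 79.3 CPM in control polysome replicate 4 against 111.4, 113 and 112 CPM (ratio 0.950). Hsd17b7 had 22.5 CPM in RAM siRNA polysome replicate 4 against 39.1, 36.2 and 39.6 CPM (ratio 0.838). Stard4 had 15.6 CPM in RAM siRNA polysome replicate 1 against 17.3, 17.5 and 17.3 CPM (ratio 0.875). Replicate 4 was the library concerned except for Stard4, and the cause was not tested.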

How the results depend on the processing

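With the replicate block, which pairs the libraries, 18 members were higher and 4 lower in input, beside 2595 and 2433 of all 12805 genes. DESeq2 with the block gave 14 and 4 (all genes 1598 and 1551), and limma-voom with it 18 and 4 (2603 and 2431). In polysomes all 3 tools gave 8 higher and 2 lower with the block. For all genes they gave 1239 and 636 (edgeR), 972 and 616 (DESeq2) and 1223 and 630 (limma-voom). Without the block DESeq2 called 2 higher in polysomes, beside 156 genes higher and 144 lower. No filter on low counts gave 4 lower in input, beside 984 of 28462 genes. Its medians of the members were 0.14 in input and 0.59 in control loading. Upper-quartile scaling gave an input median of 0.18 and library size only 0.14. Leaving out replicates gave, in input, 5 to 12 members higher (with the block 14, 15, 17 and 17) and 1 to 4 lower. Medians there were 0.12 to 0.24. In polysomes it gave 0 to 13 higher, 0 to 3 lower and medians of 0.11 to 0.39. The same fits called 482 to 2571 of all 12805 genes higher and 426 to 2396 lower in input. In polysomes they called 0 to 2731 higher and 0 to 1827 lower. Over 22 other settings in input, Scd2, Acss2, Dhcr7, Tm7sf2, Scap and Elovl6 kept their calls, Insig1, Srebf1 and Acly lost theirs in 6 each and Hsd17b7 in 3.

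Values near 0 changed sign, and so did the larger polysome values of Acaca and Fasn when RAM siRNA polysome replicate 2 was left out. With all libraries, Lss in input was 0.01 with upper-quartile scaling. Hmgcs1 in polysomes was -0.034 with library size only, -0.016 with limma-voom, -0.018 with the replicate block, -0.033 with DESeq2 and the block and -0.021 with limma-voom and the block. In control loading Fdps was -0.001 with upper-quartile scaling and -0.081 with library size only, and Hsd17b7 was 0.009 without a filter. Leaving out replicates gave, in input, -0.14 to 0.075 for Hmgcs1 (0.021 with the block, without replicate 1), -0.098 to 0.067 for Lss (0.034 with the block, without replicate 4), -0.15 to 0.098 for Scd1 (0.002 with the block, without replicate 3), -0.002 to 0.16 for Fdft1, -0.018 to 0.18 for Mvd and -0.14 to 0.013 for Msmo1. In polysomes it gave -0.17 to 0.11 for Msmo1, -0.41 to 0.045 for Lss, -0.35 to 0.22 for Hmgcs1 (with the block -0.156 without replicate 2 and -0.061 without replicate 4), -0.015 to 0.21 for Fdft1, -0.14 to 0.72 for Acaca, -0.17 to 0.79 for Fasn and -0.07 to 0.43 for Scd1, and for Fdps in control loading -0.071 to 0.104 (-0.085 to 0.11 with the block). RAM siRNA polysome replicate 2 was the library whose omission turned Fdft1, Acaca, Fasn and Scd1 in polysomes. The cause was not tested.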
